A study of Mus musculus with 6 samples.

Results

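Cytotoxic lymphocytes kill by 2 routes. In granule exocytosis, perforin opens the membrane of the target cell to granzymes that are stored in lysosome-related granules, and in the death ligand route the surface proteins FasL and TRAIL engage receptors that start apoptosis in the target. The granules are packed on the proteoglycan serglycin, their membranes carry LAMP1, and intracellular serpins, protease inhibitors that include a granzyme B inhibitor, protect the killer cell from its own proteases. The genes described are the non-granzyme part of this machinery: perforin (Prf1), the death ligands (Fasl, Tnfsf10), 3 serpins (Serpinb9, Serpinb6b, Serpinb9b) and the granule proteins Srgn, Nkg7, Ctsw and Lamp1. They were chosen by name, as the probe sets to which the array's annotation gives a single one of these symbols. All 10 genes were found, with 15 of the 45101 probe sets on the array and 10 of 18193 genes with a single symbol. No probe set was left out for a low value.

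Cells of 2 mouse T cell clones were compared, with 3 arrays each. The 2D11 arrays (2D11-1, 2D11-2 and 2D11-4) hold cells that the labels call CD8aa Tregs, regulatory T cells with the CD8 alpha homodimer, whose restriction, by the series title, is to Qa-1, a class Ib molecule. The OvacD8 arrays (OvacD8-1, OvacD8-2 and OvacD8-3) hold OT-1 CD8aa+TCRab+ T cells; OT-1 is a transgenic T cell receptor for an ovalbumin peptide. Both were kept in culture with IL-2, antigen-presenting cells and the antigen of each line. The labels give no genotype, age or time after stimulation. They name the source a T cell clone, number the arrays of a clone, and do not say whether the numbers are separate cultures, so the spread between arrays may be technical and a difference may belong to these clones.

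The deposited values are log2 expression centred on the median of each probe set over the 6 arrays. They show differences between arrays and no level, so neither the abundance of a gene nor a comparison of 2 genes' levels can be read from them. Where the groups do not overlap, centring places the innermost array of each group at the same distance from 0. In these bulk cultures, fewer cells with a transcript and less of it per cell cannot be told apart. OvacD8-1 stood apart from OvacD8-2 and OvacD8-3. Over the 29526 probe sets spanning at least 0.1 it correlated with them at r = 0.30 and 0.35, a description over probe sets that are not independent. The mean of 24 poly-A spike-in controls, bacterial transcripts added to the RNA, was -0.11 to 0.82 on the 2D11 arrays and 0.49 on OvacD8-1, but -1.58 and -2.39 on OvacD8-2 and OvacD8-3. Of the array's own RNA controls, the Gapdh 3' probe set and the actin 5' minus 3' difference split the arrays in the same way. The Gapdh 5' minus 3' difference did not. The actin 3' probe set stood at -0.03 to 0.0004 on the 2D11 arrays, and at -0.29, 0.12 and 0.13 on the OvacD8 arrays. The Gapdh 3' probe set stood at -0.12 to 0.01 on the 2D11 arrays and at -0.17 on OvacD8-1, but at 1.39 on each of OvacD8-2 and OvacD8-3. The 5' minus 3' difference of the centred actin probe sets was -0.19 to 0.12 on the 2D11 arrays and -0.09 on OvacD8-1, but 0.38 and 0.32 on OvacD8-2 and OvacD8-3; that of Gapdh was -0.27 to 0.15 on the 2D11 arrays and 0.016, 0.14 and 0.22 on the OvacD8 arrays. Their part in the differences below was not tested. The differences of the members are therefore also given without OvacD8-1, where the groups coincide with the spike-in split and cannot be told apart from it. With the split as a term, the difference is that of the 2D11 mean from OvacD8-1 alone, which is taken to vary as the other arrays do. Cd8b1, whose product the alpha homodimer lacks, was lower in 2D11 by -2.36 ± 0.11 (SE; limma adjusted p = 0.00093, gene means). The labels give CD8aa for both clones, and the centred values show no level of Cd8b1 in either. None of the other 6 measured T cell markers passed. In the lists of B cell (5 genes), macrophage and monocyte (6), dendritic cell (4), NK cell (3), and mast cell and neutrophil markers (6), limma called 0 genes, and 3 genes were lower at an unadjusted p under 0.05. The macrophage list averaged -0.27 to 0.11 on the 2D11 arrays, and 1.30 on OvacD8-1, 0.37 on OvacD8-2 and 0.20 on OvacD8-3. Its genes did not move together: OvacD8-1 was the highest of the OvacD8 arrays for 4 of the 6 and the lowest for 2, Cd68 and Cd14. Without OvacD8-1, 2 macrophage genes (Cd68 and Cd14) passed as lower in 2D11 and 1 (Lyz2) as higher. Of all genes, 9.40% were called lower in that fit and 7.80% higher. In the same fit, 1 mast cell and neutrophil gene was lower, 1 dendritic cell gene was higher, and 0 B cell and NK cell genes passed. The median difference of the macrophage list was -0.61 over all arrays and -1.12 with the split as a term. The mast cell and neutrophil list averaged 0.02, 0.58 and 0.56 on the OvacD8 arrays, but its median difference was 0.0054. Of its 6 genes, 4 spanned under 0.1 over the 6 arrays and 1 differed by at least 2-fold, so these averages rest on few genes. The dendritic cell list averaged 0.46, -0.09 and -0.09 on the OvacD8 arrays, and the NK cell list, of 3 genes, 0.25, -0.05 and 0.01. The macrophage, dendritic cell and NK cell lists thus averaged highest on OvacD8-1, which alone stands for OvacD8 with the split as a term.

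The serpins, TRAIL, cathepsin W and 1 of the 2 perforin probe sets had all 2D11 arrays below all OvacD8 arrays, and FasL had all above, but the differences that passed the test were few. Of the 15 probe sets, 2 were lower in 2D11 (1 each of Tnfsf10 and Serpinb9) and 1 was higher (Fasl) at a limma adjusted p under 0.05 over all 45037 probe sets that are not array controls. Of all these probe sets, 2.05% were called lower and 2.00% higher. The groups did not overlap for 9 member probe sets on the lower side and for 2 on the higher side, against 8.54% and 11.7% of all probe sets. The median difference of the 15 was -0.60 on the log2 scale, beside 0.0076 over all probe sets. Without OvacD8-1, 7 member probe sets were lower and 0 higher, while 5.80% and 4.80% of all probe sets were called. With the split as a term, 2 were lower and 0 higher, against 3.42% and 1.83%. With the mean of all probe sets of a gene as its value, Serpinb9 and Tnfsf10 were called lower and no member higher, against 3.37% and 3.30% of genes. The groups did not overlap for 6 member genes on the lower side and 1 on the higher side, against 10.7% and 12.6% of genes.

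**Figure D1:**
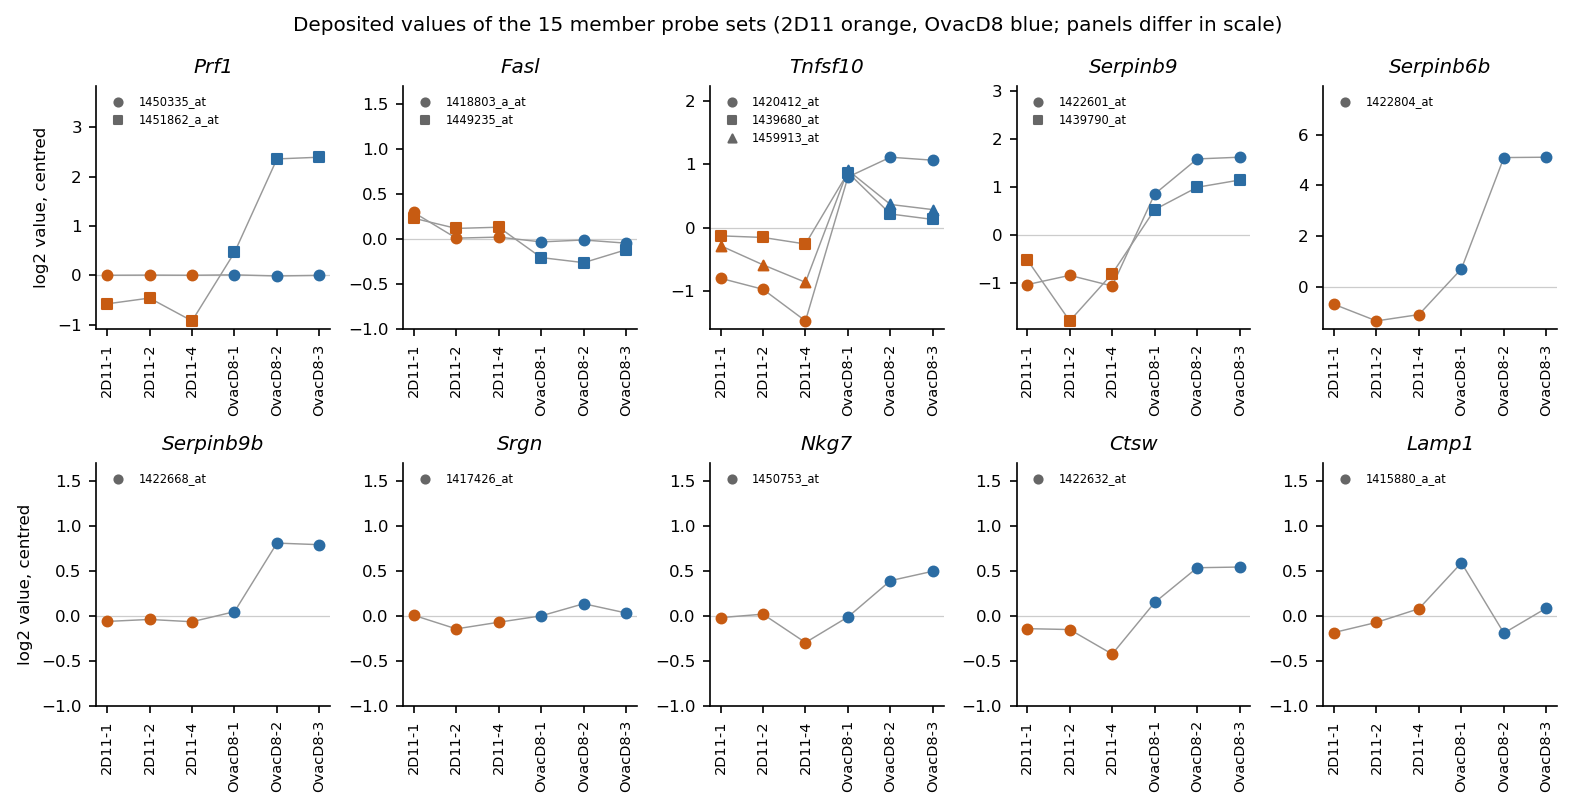
Deposited log2 values, centred per probe set, of the 15 member probe sets (vertical axes, scales differ between panels) on the 2D11 arrays (orange, left) and the OvacD8 arrays (blue, right) along the horizontal axis; each point is 1 array, each marker shape and grey line 1 probe set. OvacD8-1 lies between the 2D11 arrays and the other OvacD8 arrays for Prf1 1451862_a_at and Serpinb6b, and is the highest array for Lamp1 and for 2 of the 3 Tnfsf10 probe sets.

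Perforin, the pore-forming protein, was read by 2 probe sets, of which 1 was nearly flat over the arrays. Probe set 1451862_a_at stood at -0.58, -0.46 and -0.92 on the 2D11 arrays and at 0.46, 2.36 and 2.39 on the OvacD8 arrays. The groups did not overlap, and OvacD8-1 lay nearer to the 2D11 arrays than to the other OvacD8 arrays. The means were -0.66 ± 0.24 in 2D11 and 1.74 ± 1.10 in OvacD8 (SD, n = 3 each), a difference of -2.39 ± 0.59 (SE), or 5.25-fold, that did not pass (limma adjusted p = 0.129). Without OvacD8-1 it was -3.03 ± 0.16 and passed (limma adjusted p = 0.00323). With the split as a term it was -1.12 (limma adjusted p = 0.0748). Probe set 1450335_at spanned 0.023 over the 6 arrays, and 34.4% of all probe sets spanned under 0.1. It showed no detectable difference (0.0037 ± 0.015), also without OvacD8-1 (0.0093 ± 0.017) and with the split as a term (-0.0076 ± 0.021). Values this flat say little about a difference, so they do not speak against the other probe set. Averaging both probe sets, the flat one included, brought the gene's difference to -1.19 (limma adjusted p = 0.0939). The 250 bases before the transcription start of Prf1 (RefSeq, GRCm38.p6, chr10:61297586-61297835, plus strand) are shown because Prf1 1451862_a_at, like the 3 serpins below, had all OvacD8 arrays above all 2D11 arrays. The same held for all 3 Tnfsf10 probe sets, whose window is not shown, so this trait does not set Prf1 and the serpins apart. The capitals mark the match to the motifs searched, a Runx core on the reverse strand at 130 to 125 bases before the start.
Prf1: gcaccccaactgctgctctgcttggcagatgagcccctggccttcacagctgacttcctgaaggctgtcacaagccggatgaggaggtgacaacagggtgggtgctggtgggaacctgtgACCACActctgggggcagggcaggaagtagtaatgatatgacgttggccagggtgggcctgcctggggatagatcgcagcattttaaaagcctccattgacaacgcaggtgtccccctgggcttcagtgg

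The death ligands went in opposite directions. Tnfsf10, which encodes TRAIL, stood at -0.80, -0.97 and -1.47 on the 2D11 arrays in probe set 1420412_at and at 0.80, 1.11 and 1.07 on the OvacD8 arrays. No 2D11 array reached an OvacD8 array, and the 3 OvacD8 arrays lay close together. The means were -1.08 ± 0.35 in 2D11 and 0.99 ± 0.17 in OvacD8 (SD, n = 3 each), and the difference of -2.08 ± 0.20 (SE), 4.22-fold lower in 2D11, passed (limma adjusted p = 0.0118). It was -2.17 without OvacD8-1 (adjusted p = 0.0149) and -1.88 with the split as a term (adjusted p = 0.0544). The call was also lost without 2D11-2 (adjusted p = 0.0548), OvacD8-2 (adjusted p = 0.0679) or OvacD8-3 (adjusted p = 0.0587), at differences of -2.13, -2.02 and -2.04.

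In the other Tnfsf10 probe sets, OvacD8-1 was the highest array. Probe set 1459913_at stood at -0.28, -0.59 and -0.86 in 2D11 and at 0.91, 0.37 and 0.28 in OvacD8, a difference of -1.10 ± 0.23 that did not pass (limma adjusted p = 0.0891), nor without OvacD8-1 at -0.90 (adjusted p = 0.0734) or with the split as a term at -1.49 (adjusted p = 0.0612). Probe set 1439680_at stood at -0.13, -0.16 and -0.26 in 2D11 and at 0.87, 0.22 and 0.13 in OvacD8, a difference of -0.59 ± 0.22 (limma adjusted p = 0.286). All 3 probe sets had the same direction with groups that did not overlap, and they differed in size and in where OvacD8-1 stood. Probe set 1439680_at passed without OvacD8-1 at -0.35 (limma adjusted p = 0.036) and with the split as a term at -1.05 (limma adjusted p = 0.00867). Some, not all, macrophage and antigen-presentation transcripts were also high on OvacD8-1. Lyz2, a myeloid lysozyme, stood at 0.49, -0.49 and 0.59 in 2D11 and at 2.70, -1.91 and -2.82 in OvacD8. Mpeg1, a macrophage pore protein, stood at -0.14, -0.28 and 0.79 in 2D11 and at 3.27, 0.14 and -0.14 in OvacD8. H2-Aa, a class II MHC chain, stood at -0.05, 0.04 and 0.02 in 2D11 and at 1.80, -0.29 and -0.34 in OvacD8. Csf1r, the receptor for a macrophage growth factor, stood at -0.08, -0.0065 and 0.00014 in 2D11 and at 1.17, -0.0114 and 0.0027 in OvacD8. The other macrophage markers did not share this pattern. Cd14, a co-receptor for bacterial lipopolysaccharide, stood at -0.20, -0.35 and -0.27 in 2D11 and at 0.20, 0.66 and 0.75 in OvacD8. Cd68, given below with the lysosomal genes, was likewise lowest on OvacD8-1 among the OvacD8 arrays, and Adgre1, an adhesion receptor of macrophages, was near 0 on all arrays (-0.03 to 0.0104). Of the dendritic cell markers other than H2-Aa, Flt3, Zbtb46 and Siglech stood at 0.0101, 0.00895 and 0.00562 on OvacD8-1. The part of these transcripts in the Tnfsf10 values was not tested.

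Fasl, which encodes FasL, was higher in 2D11 by a small margin. Probe set 1449235_at stood at 0.23, 0.12 and 0.13 on the 2D11 arrays and at -0.21, -0.26 and -0.12 on the OvacD8 arrays. The groups did not overlap, with 0.16 ± 0.06 in 2D11 and -0.20 ± 0.07 in OvacD8 (SD, n = 3 each). The difference of 0.36 ± 0.05 (SE), 1.28-fold, passed over all arrays (limma adjusted p = 0.0347). OvacD8-1 gave no separate picture here: the difference was 0.35 without it and 0.37 with the split as a term. The call was lost in each of the 6 fits with 1 array left out, at limma adjusted p-values of 0.0517 (without OvacD8-1) to 0.107 (without OvacD8-2) and differences of 0.32 to 0.39. Probe set 1418803_a_at stood at 0.30, 0.0101 and 0.022 in 2D11 and at -0.03, -0.0101 and -0.05 in OvacD8, where 2D11-1 alone stood out; its difference of 0.14 ± 0.09 did not pass (limma adjusted p = 0.592), and was 0.14 in both the fit without OvacD8-1 and that with the split as a term (adjusted p = 0.652 and 1.00).

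All 3 serpins had lower means in 2D11, and Serpinb9 passed the test in 1 of its 2 probe sets. Serpinb9, the mouse granzyme B inhibitor, stood at -1.04, -0.85 and -1.07 on the 2D11 arrays in probe set 1422601_at and at 0.85, 1.58 and 1.62 on the OvacD8 arrays. The 2D11 arrays lay within a narrow band, and the OvacD8 arrays all lay above it. The means were -0.99 ± 0.12 in 2D11 and 1.35 ± 0.43 in OvacD8 (SD, n = 3 each), and the difference was -2.33 ± 0.24 (SE), 5.04-fold lower in 2D11 (limma adjusted p = 0.0127). It passed without OvacD8-1 (-2.58, adjusted p = 0.00112) and with the split as a term (-1.83, adjusted p = 0.00608). It was lost without any other single array, at limma adjusted p-values of 0.0512 (without OvacD8-3) to 0.0657 (without OvacD8-2) and differences of -2.40 to -2.20. The second probe set, 1439790_at, stood at -0.52, -1.80 and -0.81 in 2D11 and at 0.52, 0.99 and 1.14 in OvacD8. Here 2D11-2 was low among the 2D11 arrays, and the difference of -1.93 ± 0.39 did not pass (limma adjusted p = 0.0783). It was -2.11 without OvacD8-1 (limma adjusted p = 0.0704) and -1.57 with the split as a term (limma adjusted p = 0.298).

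Serpinb6b, an intracellular serpin of the same family, spanned the widest range of the members. It stood at -0.70, -1.36 and -1.11 on the 2D11 arrays and at 0.70, 5.10 and 5.11 on the OvacD8 arrays. OvacD8-1 lay 1.75 above the 2D11 mean, and the mean of OvacD8-2 and OvacD8-3 lay 6.16 above it. The difference over all arrays was -4.69 ± 1.34 (SE), 25.8-fold, and did not pass (limma adjusted p = 0.177). Without OvacD8-1 it was -6.16 ± 0.22, 71.5-fold, and passed (limma adjusted p = 0.00143). With the split as a term it was -1.75, 3.37-fold (limma adjusted p = 0.056). Serpinb9b, another relative, stood at -0.07, -0.04 and -0.07 in 2D11 and at 0.04, 0.80 and 0.79 in OvacD8. OvacD8-1 lay beside the 2D11 arrays, and the difference of -0.60 ± 0.23 did not pass (limma adjusted p = 0.3). It passed without OvacD8-1 at -0.86 ± 0.02 (limma adjusted p = 0.000621) and was -0.10 with the split as a term (limma adjusted p = 0.141). Near-identical relatives in this family can share probes, so values of single members are uncertain.

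These 3 serpin genes are direct neighbours among the protein-coding genes of chromosome 13 in assembly GRCm38.p6, in the order Serpinb6b, Serpinb9, Serpinb9b. Around them, 5 other clade B serpins and 6 other protein-coding genes were measured within 8 places on either side. None of these 11 passed over all arrays. Serpinb1b, the next gene after Serpinb9b, stood at -0.05, 0.003 and -0.06 in 2D11 and at -0.003, 0.36 and 0.71 in OvacD8. Its difference was -0.39 ± 0.19 (limma adjusted p = 0.356), and -0.57 without OvacD8-1 (limma adjusted p = 0.0429). Serpinb1a, 2 places before Serpinb6b, passed without OvacD8-1 at -0.11 (limma adjusted p = 0.0487). The other 9 lay between -0.09 and 0.14 over all arrays, and none passed without OvacD8-1 either.

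**Figure D2:**
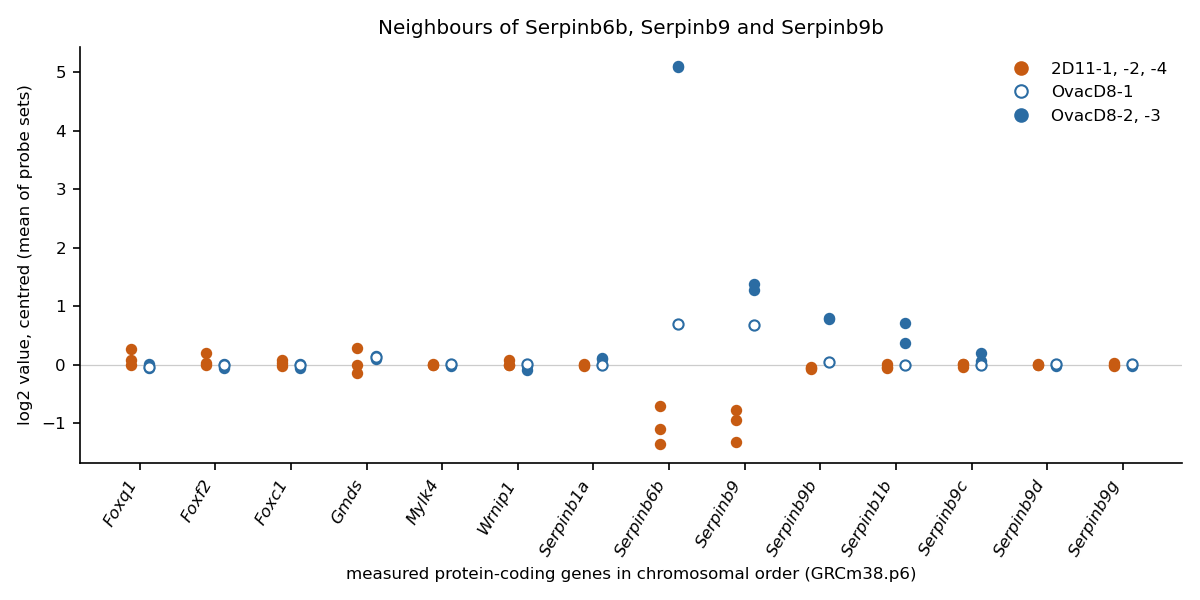
Centred log2 values (vertical axis, mean over the probe sets of a gene) of the measured protein-coding genes around Serpinb6b, Serpinb9 and Serpinb9b in chromosomal order (horizontal axis, not to distance); orange points are the 2D11 arrays, the open blue point OvacD8-1 and filled blue points OvacD8-2 and OvacD8-3. Serpinb6b and Serpinb9 have 2D11 arrays at or below -0.70 and all OvacD8 arrays at or above 0.69, while the genes at both ends stay near 0.

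The 250 bases before the start of the 3 serpin genes are shown since the genes are neighbours and had all OvacD8 arrays above all 2D11 arrays. They come from RefSeq (GRCm38.p6, plus strand), at chr13:32965011-32965260 for Serpinb6b, chr13:33004291-33004540 for Serpinb9 and chr13:33027164-33027413 for Serpinb9b. Capitals mark a match to the interferon-type motif, which among these 3 windows is in that of Serpinb9, on the reverse strand at 45 to 37 bases before the start.
Serpinb6b: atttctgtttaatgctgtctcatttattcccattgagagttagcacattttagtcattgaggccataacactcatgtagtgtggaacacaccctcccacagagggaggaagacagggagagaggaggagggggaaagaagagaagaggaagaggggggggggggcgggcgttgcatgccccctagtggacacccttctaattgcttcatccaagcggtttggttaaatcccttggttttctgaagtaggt
Serpinb9: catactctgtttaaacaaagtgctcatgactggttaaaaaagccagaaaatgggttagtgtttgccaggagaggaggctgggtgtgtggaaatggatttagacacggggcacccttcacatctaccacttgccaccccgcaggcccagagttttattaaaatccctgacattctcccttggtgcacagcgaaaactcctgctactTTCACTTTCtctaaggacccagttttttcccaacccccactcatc
Serpinb9b: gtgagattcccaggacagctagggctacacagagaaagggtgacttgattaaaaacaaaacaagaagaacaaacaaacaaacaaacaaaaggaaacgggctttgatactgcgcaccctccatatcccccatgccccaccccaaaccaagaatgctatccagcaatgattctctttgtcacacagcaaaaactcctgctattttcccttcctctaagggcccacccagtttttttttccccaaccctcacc
In global alignments, the Serpinb9 and Serpinb9b windows were 56.2% identical, Serpinb6b and Serpinb9 42.2%, and Serpinb6b and Serpinb9b 39.5%. The Prf1 window was 42.7% to 49.1% identical to the serpin windows.

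Promoter windows were in the RefSeq table for 9 of the 10 members, 10 windows in all since Srgn has 2, and not for Ctsw. Their 250 upstream bases were searched on both strands for 5 motifs, none of which overlapped another there. The interferon-type motif GAAANNGAA was in 3 of the 10 member windows (Lamp1, Serpinb9 and 1 of Srgn), against 7.13% of 32851 windows. The Runx core TGTGGT was in 4 windows (Nkg7, Lamp1, Prf1 and 1 of Srgn), against 14.0%. The STAT motif TTCNNNGAA and the T-box core GGTGTGA were each in 1 window, that of Nkg7, against 7.02% and 3.33%. The AP-1 motif TGANTCA was in 0 windows, against 6.75%. A match describes these letters only.

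Among the granule proteins, no probe set passed over all arrays. Ctsw, a cathepsin of cytotoxic T and NK cells, stood at -0.15, -0.16 and -0.43 on the 2D11 arrays and at 0.15, 0.53 and 0.54 on the OvacD8 arrays. The groups did not overlap, with OvacD8-1 nearest to the 2D11 arrays. The difference was -0.65 ± 0.15 (SE), 1.57-fold (limma adjusted p = 0.101). It passed without OvacD8-1 at -0.78 (limma adjusted p = 0.0263) and was -0.39 with the split as a term (limma adjusted p = 0.285).

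Nkg7, a granule membrane protein of NK and T cells, stood at -0.02, 0.016 and -0.30 in 2D11 and at -0.016, 0.39 and 0.49 in OvacD8. OvacD8-1 lay among the 2D11 arrays, so the groups overlapped. The difference was -0.39 ± 0.17 (limma adjusted p = 0.367), and -0.54 ± 0.12 without OvacD8-1 (limma adjusted p = 0.0786). It was -0.09 ± 0.15 with the split as a term (limma adjusted p = 1.00). Srgn, the proteoglycan on which granule contents are packed, stood at 0.0031, -0.15 and -0.07 in 2D11 and at -0.0031, 0.13 and 0.03 in OvacD8. It spanned 0.28 over the 6 arrays with overlapping groups, and its difference of -0.13 ± 0.06 did not pass (limma adjusted p = 0.387), nor without OvacD8-1 at -0.15 (adjusted p = 0.29) or with the split as a term at -0.07 (adjusted p = 1.00).

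Lamp1, the lysosomal membrane protein that reaches the surface during degranulation, stood at -0.19, -0.08 and 0.08 in 2D11 and at 0.59, -0.19 and 0.08 in OvacD8. OvacD8-1 alone was high. OvacD8-2 lay just below the lowest 2D11 array (-0.195 against -0.189), and OvacD8-3 just above the highest (0.083 against 0.076). The difference was -0.22 ± 0.22 over all arrays (limma adjusted p = 0.779), -0.0071 without OvacD8-1 (limma adjusted p = 0.97) and -0.65 with the split as a term (limma adjusted p = 0.149). Lyz2, Mpeg1, Csf1r and H2-Aa were high on the same array, while Cd68 and Cd14 were lowest there among the OvacD8 arrays and Adgre1, Flt3, Zbtb46 and Siglech lay near 0, as given above. Their part in the Lamp1 value was not tested.

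OvacD8-2 and OvacD8-3 differed by at most 0.28 in any member probe set. OvacD8-1 was the lowest of the 3 OvacD8 arrays in 9 of the 15 probe sets and the highest in 4. It lay below the mean of the other OvacD8 arrays by 4.40 for Serpinb6b, 1.91 for Prf1 1451862_a_at, 0.75 for each of Serpinb9b and Serpinb9 1422601_at, 0.54 for Serpinb9 1439790_at and 0.46 for Nkg7. It lay above that mean by 0.70 and 0.58 for Tnfsf10 1439680_at and 1459913_at and by 0.64 for Lamp1. For Fasl 1449235_at it lay within 0.016 of that mean.

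**Figure D3:**
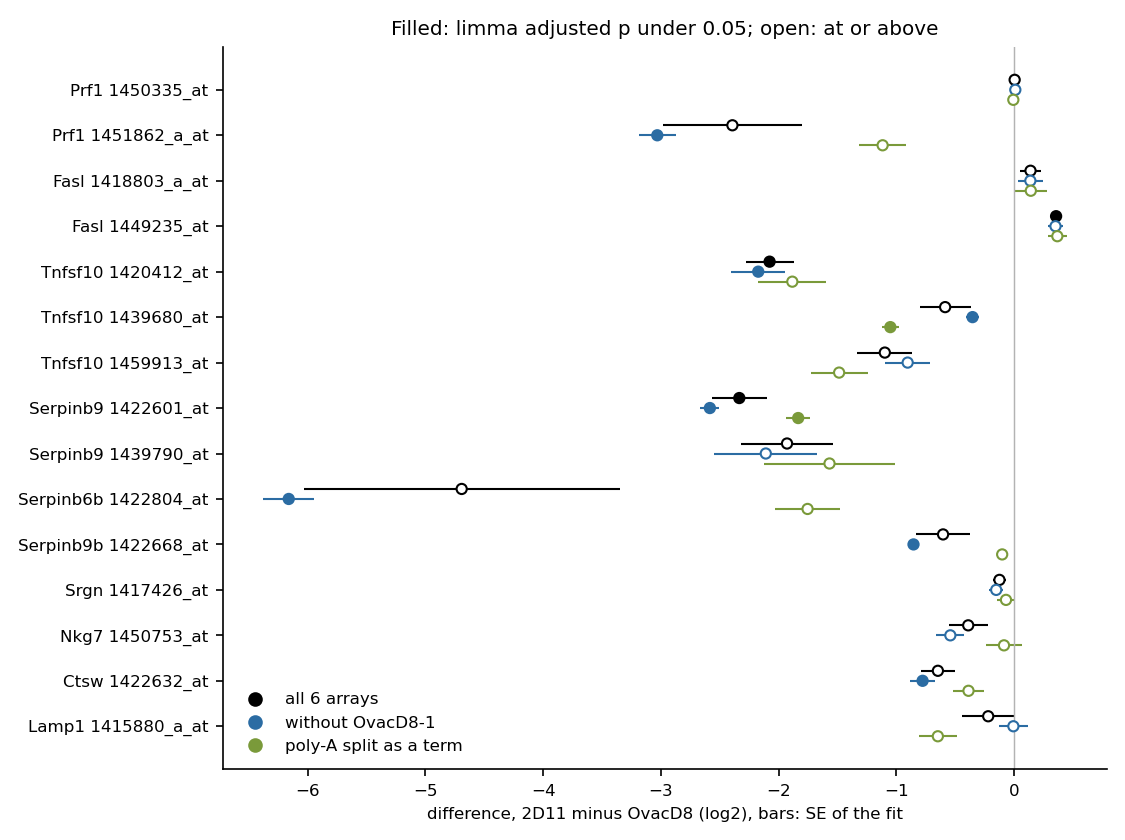
Difference per member probe set (rows), 2D11 minus OvacD8 on the log2 scale (horizontal axis) with the standard error of the limma fit as bars, over all 6 arrays (black), without OvacD8-1 (blue) and with the poly-A spike-in split as a term (green); filled points have an adjusted p under 0.05. Serpinb6b runs from -6.16 to -1.75 and Prf1 1451862_a_at from -3.03 to -1.12 over the 3 fits, while Fasl 1449235_at stays at 0.35 to 0.37.

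For members whose widest probe set spanned at least 1, the 3 probe sets of other genes with the smallest root mean square difference over the 6 arrays were listed, out of 34942 to 34944. For Prf1 1451862_a_at these were Septin11 (0.15), Slc52a3 (0.20) and Haao (0.20). For Tnfsf10 1420412_at they were Foxred2 (0.15), Zfp386 (0.15) and Slfn1 (0.18). For Serpinb9 1439790_at they were Ikzf2 (0.16), Cyria (0.23) and Prkca (0.24). For Serpinb6b the nearest, Ifit1 at 0.61, was farther off, followed by Lum (0.82) and Fos (0.83). Ifit1 stood at -0.64, -0.45 and -0.50 in 2D11 and at 0.45, 4.33 and 4.46 in OvacD8, again with OvacD8-1 near the 2D11 arrays. Lum stood at -0.02, 0.0051 and -0.03 in 2D11 and at -0.0051, 5.29 and 5.34 in OvacD8. Fos stood at 0.34, -0.85 and -0.34 in 2D11 and at -0.41, 5.82 and 5.77 in OvacD8. The source of these high values on OvacD8-2 and OvacD8-3 was not tested.

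Other genes of the killing machinery that passed over all arrays were lower in 2D11, apart from Dffa. In gene means, 3.37% of all genes were called lower and 3.30% higher, and the median difference of all genes was 0.0069. Of 26 measured genes of granule exocytosis, 6 were lower and 0 higher (median -0.13). These included Sytl2, a Rab27 effector, at -0.83 ± 0.13, the SNARE proteins Snap23 and Stx11 at -0.74 ± 0.11 and -0.69 ± 0.12, and Hps1, a subunit of a complex for lysosome-related organelles, at -0.50 ± 0.08 (limma adjusted p = 0.0263 to 0.0439). The 4 probe sets of Hps1 ran from -1.53 to 0.0073, the 2 of Stx11 from -1.10 to -0.27 and the 3 of Snap23 from -0.87 to -0.60. Without OvacD8-1, 10 genes of this list were lower and 1 (Vamp4, at 0.60) higher, where 9.40% and 7.80% of all genes were called. Leaving out any other array left 0 or 1 lower. With the split as a term 0 were lower and 2 higher, where 4.66% and 2.83% of all genes were called.

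Of 23 lysosomal and granule genes, 4 were lower in 2D11 and 0 higher (median -0.36). They were Npc1, which exports cholesterol from lysosomes, at -1.94 ± 0.21 (limma adjusted p = 0.0105), Gnptab, of the enzyme that tags lysosomal proteins with mannose 6-phosphate, at -1.55 ± 0.28 (adjusted p = 0.045), the protease gene Ctsd at -1.43 ± 0.20 (adjusted p = 0.0238) and the chaperone gene Calr at -0.39 ± 0.06 (adjusted p = 0.0354). Without OvacD8-1, 12 were lower, where 9.40% of all genes were called lower, and without any other array 0 to 2. With the split as a term, the 4 named genes differed by -1.98 (Npc1), -0.93 (Gnptab), -1.06 (Ctsd) and -0.37 (Calr), and not all of them passed. Ctsh and Lgmn were high on OvacD8-1 alone, at 2.43 and 0.76. Their differences were -2.44 and -0.75 with the split as a term, and 0.02 and 0.04 without OvacD8-1. Cd68, a lysosomal membrane protein counted among the macrophage markers, stood at -0.71, -0.51 and -0.48 in 2D11 and at 0.48, 3.34 and 3.44 in OvacD8. Its difference of -2.99 did not pass over all arrays (limma adjusted p = 0.144). It passed without OvacD8-1 at -3.96 (limma adjusted p = 0.000284) and with the split as a term at -1.04 (limma adjusted p = 0.0182).

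Of 20 genes of the death receptor and apoptosis pathway, 1 was lower and 1 higher (median -0.03). Bid, the BH3-only protein that granzyme B and caspase-8 cleave, was lower by -1.01 ± 0.10 (limma adjusted p = 0.0089) and passed in all 6 fits with 1 array left out. Its probe sets ran from -2.16 to 0.006. Dffa, which inhibits the apoptotic nuclease, was higher by 0.27 ± 0.05 (limma adjusted p = 0.037). The receptors of the death ligands, Fas and Tnfrsf10b, showed no detectable difference at 0.0104 and 0.0047. Tnfrsf10b spanned 0.029 over the 6 arrays, against 0.23 for Fas, and values as flat as those of Tnfrsf10b say little about a difference. Without OvacD8-1, 6 genes of this list were lower and 2 higher (9.40% and 7.80% of all genes). There were 2 lower and 1 higher with the split as a term (4.66% and 2.83%). Dffa did not pass when 2D11-2, 2D11-4, OvacD8-2 or OvacD8-3 was left out. Of 14 other clade B serpins, 0 passed (limma), also at an unadjusted p under 0.05, with a median of 0.011. Of these, 7 spanned under 0.1 over the 6 arrays, against 0 of the 10 members and 33.0% of all genes. Values this flat say little about a difference. Without OvacD8-1, Serpinb1a and Serpinb1b passed as lower, and neither did with the split as a term. Of the 10 granzymes that perforin delivers, Gzma and Gzmk were lower by -10.85 and -8.65, and the other 8 did not pass over all arrays. Without OvacD8-1, Gzmb passed as lower too, at -1.93 (limma adjusted p = 0.0169), which made 3 granzymes lower and 0 higher. Gzma and Gzmk were lower also with the split as a term, and Gzmd was higher there, at 7.78 (limma adjusted p = 0.0251); Gzmd stood at -7.46 on OvacD8-1.

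**Figure D4:**
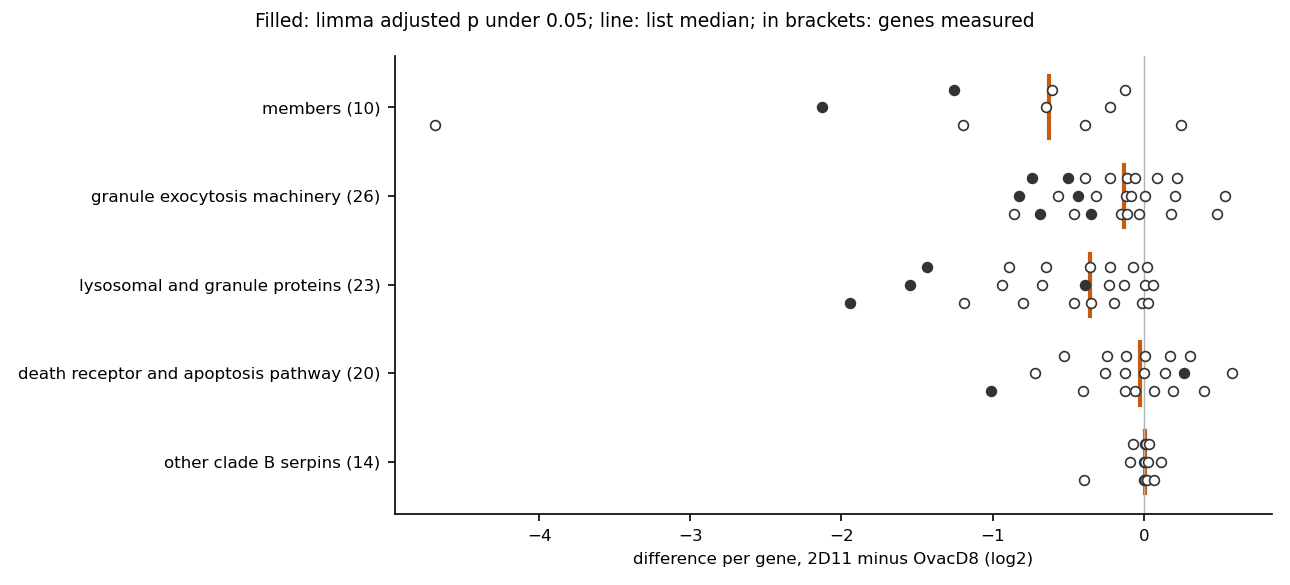
Difference per gene, 2D11 minus OvacD8 on the log2 scale (horizontal axis), for the 10 members and 4 lists of related genes (rows); each point is a gene, filled points have a limma adjusted p under 0.05, and the orange line is the list's median. The member median lies at -0.63 and that of the other clade B serpins at 0.011, where 7 of the 14 span under 0.1 over the 6 arrays.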

How the data were processed

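Per the labels' protocols, biotin-labelled target was made from amplified RNA (Ovation V2). The values the authors deposited were made with RMA (version not stated), per the submitters' processing notes, and were used as log2. No source used here states the base, but the widest probe set spans 11.4, more than natural logs of a 16-bit scanner allow (11.1). Every probe set had a median of 0 over the 6 arrays.

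Groups came from the sample titles. Probe sets were matched to single symbols in the array's annotation (34945 of 45101; 64 controls left out), and the Entrez identifiers of all 15 member probe sets were in the RefSeq table. The main fit was limma 3.58.1 (R 4.3.3; lmFit, eBayes, two-sided) per probe set, with Benjamini-Hochberg adjustment over 45037 probe sets, and a fit on gene means stood beside it. The fit was tested on simulated data. The members, lists, motifs and tests were chosen with earlier results of these data known. From each list up to 4 called genes are named, by size; the markers of other cell types, Gzma, Gzmb, Gzmd, Gzmk, Fas, Tnfrsf10b and the serpin neighbours were named after their values were seen. Alternatives were each array left out, a replicate block, array weights (gene-by-gene method, since the default did not converge), other scalings, filters and a robust prior. The number of arrays limits the precision.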

Additional observations from a re-analysis of the deposited data

How the results depend on the processing

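Of 209 differences of member probe sets under the alternatives, 173 stayed on the same side of the threshold, 20 lost a call, 16 gained one and 0 turned a call round. Over all arrays, 2 member probe sets were lower and 1 higher, and 925 and 902 of all probe sets. Leaving out 1 array gave 0 to 7 member probe sets lower and 0 higher, 421 to 2613 of all probe sets lower and 390 to 2160 higher, and 0 to 6 member genes lower (2 over all arrays). The upper ends came without OvacD8-1, where 9.40% of all genes were called lower. Without OvacD8-2 or OvacD8-3, 0 members passed at either level. The cause was not tested. Array weights gave 7 member probe sets and 7 member genes lower and 1 member gene higher. Of all probe sets, 2150 were lower and 2434 higher in that fit. Shares of all genes are given only over all arrays, without OvacD8-1 and with the split as a term. Under the other alternatives, counts of member genes cannot be read against all genes. Among 29526 probe sets spanning at least 0.1, 6 member probe sets were lower, and 1378 of all were lower and 1584 higher, where fewer probe sets were tested. Quantile normalization called 3 member probe sets lower and 0 higher, and 4 member genes lower; its split of all probe sets was 1112 lower and 676 higher. With the poly-A split as a term, 0 member probe sets were higher, 3 member genes were lower and 1539 of all probe sets were lower. At least 2-fold, 0 member probe sets were higher, and 590 of all were lower and 454 higher. Taking for each gene its widest probe set, 1 member gene was higher (Fasl) and 1 lower (Tnfsf10). With the replicate block, 0 member probe sets were lower and 0 higher, 1 member gene was lower, and 142 and 87 of all probe sets were lower and higher. The groups share only the numbers 1 and 2, whose deviations from the group means correlated at -0.03 and 0.21, and the labels do not say that numbers pair arrays.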
